A study of Mus musculus with 9 samples.

Results

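The FOS, JUN and ATF3 family was followed here through 7 genes, Fos, Fosb, Fosl2, Jun, Junb, Jund and Atf3. Its members were taken as every probe set of the array that the platform annotation assigns to 1 of these symbols alone, which gave 10 probe sets of the 34945 with a single symbol. Jun, Jund and Fosl2 had 2 probe sets each and the other genes 1. Of the 7 genes, 6 were bright enough to be tested among 12343 genes of 18193, and Atf3 was not.

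RNA was measured on 9 expression arrays of sorted granulocyte-macrophage progenitors (GMPs), marrow cells that give rise to neutrophils and monocytes. There were 3 arrays for each state of the microRNA-processing gene Dicer1, labelled Dicer wild type, Dicer heterozygous deletion and Dicer null. Every donor, wild-type controls included, carries the same background label, with Cebpa-Cre, the Cre-dependent reporter R26-LSL-Eyfp and Dicer1wt/fl or Dicer1fl/fl. The design text calls the heterozygous group Dicer -/wt and the null group Dicer fl/fl, and the alleles of each wild-type donor are not given. Fetal liver cells of embryonic day 13.5 were injected into irradiated C57BL/6 hosts aged 6 to 8 weeks, and EYFP-positive GMPs were sorted from marrow 6 to 10 weeks later. The Cre is driven by Cebpa, so deletion is limited to cells that have switched that gene on. A fetal liver was as a rule given to more than 1 host, and the labels do not say which samples shared one, so the p-values measure the spread between these samples, and some of that spread may be technical.

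FOS and JUN proteins pair through a leucine zipper to form the transcription factor AP-1, which binds short DNA sites such as TGACTCA. JUN proteins can pair with each other, whereas FOS proteins need a JUN partner, and ATF3 joins the same dimers. Fos, Fosb, Jun, Junb and Atf3 are immediate early genes, whose RNA rises within minutes of a growth factor or stress and decays quickly. Jund and Fosl2 are expressed more steadily, and the family is known for its part in monocyte and macrophage differentiation.

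On these arrays Jun, Fos and Jund were lower in both Dicer-deleted groups than in wild type. Fosl2 was higher in null cells than in either other group. Junb and Fosb did not pass the test in any comparison, and Atf3 was too dim to test.

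Markers of the labelled cell type were bright enough to test, which does not by itself identify a cell type. All 10 monocyte and macrophage markers measured and 11 of 12 late neutrophil markers were bright enough too. All 16 GMP markers measured were, among them the primary granule genes Mpo (7910 ± 684, SD, n = 3, wild type) and Ctsg (8270 ± 424). The summed signal of this list was 32390 to 36180 on wild-type, 32900 to 37600 on heterozygous and 33620 to 36170 on null arrays. Dicer1 itself read 223 to 244 on wild-type, 169 to 201 on heterozygous and 97.2 to 115 on null arrays. Its log2 difference from wild type was -1.07 in null cells (limma adjusted p = 1.88e-05). In heterozygous cells it was -0.31 (adjusted p = 0.217) and did not pass, though it did with probe sets averaged (-0.51, adjusted p = 0.015). Wild-type replicate 2 stood apart by sex, where Xist read 2610 and the Y-linked Eif2s3y 1.13; the other 8 arrays had Xist at 16.4 to 30.2 and Eif2s3y at 622 to 859. All samples are labelled female, but by these genes only wild-type replicate 2 matched that label and the other 8 arrays read as male. That array also had the highest late neutrophil, mast cell and erythroid marker sums and the lowest monocyte sum of its group, as given with those lists. Member differences and list counts against wild type are therefore given without it too, the list counts by a choice made after seeing the data. Without it 4 members were called in null and 3 in heterozygous cells, and list genes named as called kept their calls, except Araf in null cells and Dusp6 and Chil3 in heterozygous cells.

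The start sites of the genes that changed are shown first, since Fos, Jun and Jund moved together and Fosl2 did not. Promoter sequences of all 7 genes were found in RefSeq (mouse build GRCm38.p6). The 250 bases before the start site are printed 5′ to 3′ on the gene's strand, with matches to any motif searched in capitals. Fos lies on the plus strand (chr12:85473640-85473889), Jun on the minus strand (chr4:95052223-95052472), Jund on the plus strand (chr8:70697489-70697738) and Fosl2 on the plus strand (chr5:32136222-32136471).
Fos: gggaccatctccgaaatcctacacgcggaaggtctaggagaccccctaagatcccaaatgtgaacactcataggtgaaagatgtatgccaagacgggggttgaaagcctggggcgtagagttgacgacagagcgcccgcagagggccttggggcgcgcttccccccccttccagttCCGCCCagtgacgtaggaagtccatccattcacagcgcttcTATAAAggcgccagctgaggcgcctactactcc
Jun: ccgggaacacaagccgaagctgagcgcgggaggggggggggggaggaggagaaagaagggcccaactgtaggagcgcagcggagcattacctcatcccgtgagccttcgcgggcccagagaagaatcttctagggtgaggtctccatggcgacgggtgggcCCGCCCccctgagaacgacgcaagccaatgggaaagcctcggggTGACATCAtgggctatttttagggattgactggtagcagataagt
Jund: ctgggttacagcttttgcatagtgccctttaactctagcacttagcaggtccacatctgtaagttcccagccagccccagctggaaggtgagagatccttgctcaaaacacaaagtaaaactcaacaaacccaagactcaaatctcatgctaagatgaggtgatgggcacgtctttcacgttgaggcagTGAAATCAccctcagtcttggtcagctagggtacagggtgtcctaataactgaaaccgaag
Fosl2: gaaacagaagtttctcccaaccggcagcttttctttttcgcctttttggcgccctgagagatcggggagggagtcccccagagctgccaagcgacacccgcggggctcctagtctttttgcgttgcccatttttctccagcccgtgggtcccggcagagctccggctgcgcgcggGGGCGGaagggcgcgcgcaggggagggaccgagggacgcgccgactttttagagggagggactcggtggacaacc

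The motifs were TGACTCA and TGACGTCA (AP-1 and cAMP-response sites), the looser TGANNTCA that also covers TGACGTCA, the CArG box of serum response factor, TATAAA and GGGCGG, on both strands. Jun held TGACATCA 45 to 38 bases before its start, and Jund held TGAAATCA 61 to 54 bases before its own. TGANNTCA was present in 2 of the 7 members and in 11.9% of all 32851 promoters of that length. TATAAA stood 33 to 28 bases before the start of Fos, in 1 of 7 members and 12.4% of all promoters. GGGCGG was in 5 of 7 members and 32.7% of all promoters. TGACTCA, TGACGTCA and the CArG box matched in 0 of the 7 windows, and in 4.46%, 1.55% and 1.47% of all promoters. A match is a stretch of letters, and a missing one says only that the letters are not in this window.

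Among the FOS genes, Fos had MAS5 signals of 3200, 3950 and 4010 on the wild-type arrays. On the heterozygous arrays it read 984, 659 and 437, and on the null arrays 709, 706 and 384. The wild-type arrays were the 3 highest, and heterozygous and null values overlapped. Mean Fos signal in null cells was 16.1% of that in wild type, and in heterozygous cells 18.6%. On the scale of log2(signal + 12), Fos differed from wild type by -2.65 in null cells (SE 0.25, limma adjusted p = 1.2e-05) and by -2.47 in heterozygous cells (SE 0.25, adjusted p = 7.53e-05). Without wild-type replicate 2 these differences were -2.61 (adjusted p = 4.56e-05) and -2.42 (adjusted p = 0.000314). Null against heterozygous cells gave -0.18, with a 95% interval of -0.72 to 0.35 and an adjusted p of 0.701, so a difference of either sign within that interval could not be resolved.

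Jun, the main activating partner of Fos, had the sharpest separation. Its brighter probe set read 498, 673 and 569 on wild-type, 69.9, 32.3 and 43 on heterozygous and 37.1, 54.2 and 17.6 on null arrays. The lowest wild-type value, 498, was far above the highest of the other 6 arrays, 69.9, and heterozygous and null values overlapped. The log2 difference was -3.68 in null cells (SE 0.26, adjusted p = 9.92e-07) and -3.33 in heterozygous cells (SE 0.26, adjusted p = 5.83e-06). These were the largest falls among the 12343 genes in both comparisons, in which Fos ranked 5. Without wild-type replicate 2 they were -3.57 (adjusted p = 3.17e-06) and -3.22 (adjusted p = 2.72e-05).

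The second Jun probe set also set the wild-type arrays apart. It read 161, 202 and 195 on wild-type, 28.4, 25.3 and 26.6 on heterozygous and 40.1, 29.5 and 13.2 on null arrays. In a fit over 22356 probe sets it differed by -2.38 in null (adjusted p = 9.26e-06) and by -2.35 in heterozygous cells (adjusted p = 2.7e-05), and without wild-type replicate 2 by -2.32 and -2.29. Between null and heterozygous cells, the brighter Jun probe set differed by -0.35 (95% interval -0.90 to 0.20, adjusted p = 0.422) and the other by -0.03 (adjusted p = 0.949). Neither passed.

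Jund, the JUN protein of resting cells, fell less. Its brighter probe set read 639, 1120 and 808 on wild-type, 418, 325 and 350 on heterozygous and 396, 423 and 350 on null arrays. No wild-type value overlapped the other groups, and null and heterozygous values overlapped each other. The log2 difference was -1.08 in null (SE 0.16, adjusted p = 0.000535) and -1.18 in heterozygous cells (SE 0.16, adjusted p = 0.000959). Without wild-type replicate 2, whose Jund value was the highest, they were -0.87 (adjusted p = 0.000719) and -0.97 (adjusted p = 0.00114). Null against heterozygous cells gave 0.10 (95% interval -0.24 to 0.44, adjusted p = 0.755). The other Jund probe set was below the brightness filter, at 2.56 to 10.2 on wild-type, 1.95 to 14.7 on heterozygous and 0.683 to 15 on null arrays. With both probe sets averaged, Jund gave -0.46 in null (adjusted p = 0.187) and -0.44 in heterozygous cells (adjusted p = 0.456) and did not pass.

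Junb, a JUN protein that can restrain Jun, was dim on all arrays. It read 23.6, 17.8 and 16.5 on wild-type, 10.3, 22.6 and 16.5 on heterozygous and 14.7, 15.7 and 10.8 on null arrays. The 3 null values lay below the 3 wild-type values, but the difference of -0.28 (95% interval -0.73 to 0.17) had an adjusted p of 0.418. Heterozygous against wild type gave -0.15 (adjusted p = 0.832) and null against heterozygous -0.13 (adjusted p = 0.757). Without wild-type replicate 2 the differences from wild type were -0.32 in null and -0.19 in heterozygous cells, neither past the threshold. Heterozygous values spanned nearly all of the others, from 10.3 to 22.6.

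Fosb, a FOS protein induced with Fos, read 17.3, 38.5 and 16.2 on wild-type, 2.99, 8.08 and 9.53 on heterozygous and 0.886, 11.1 and 9.77 on null arrays. The wild-type values were the 3 highest, and the gene passed the brightness filter of 8.5 through that group, with means of 24 on wild-type, 6.86 on heterozygous and 7.26 on null arrays. The difference was -0.89 in null (SE 0.29, adjusted p = 0.051) and -0.90 in heterozygous cells (SE 0.29, adjusted p = 0.182), neither past the threshold. In null cells it passed under 4 of 21 alternative settings. Without wild-type replicate 2, which had the highest value, the differences were -0.62 (adjusted p = 0.209) and -0.62 (adjusted p = 0.431). Null against heterozygous cells gave 0.0009 (95% interval -0.62 to 0.62, adjusted p = 0.999).

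Fosl2, which encodes the FOS protein Fra-2, moved the other way. Its brighter probe set read 364, 202 and 315 on wild-type, 286, 311 and 359 on heterozygous and 555, 475 and 511 on null arrays. The 3 null arrays were above the other 6, and wild-type and heterozygous values overlapped. It rose by 0.82 against wild type (SE 0.16, adjusted p = 0.00406) and by 0.67 against heterozygous cells (SE 0.16, adjusted p = 0.0135), while heterozygous against wild type gave 0.15 (95% interval -0.20 to 0.49, adjusted p = 0.789). Without wild-type replicate 2, whose Fosl2 value was the lowest, the rise against wild type was 0.58 (adjusted p = 0.00519) and heterozygous against wild type gave -0.09 (adjusted p = 0.829). The rise against heterozygous cells missed the threshold when null replicate 1 was left out (0.62, adjusted p = 0.0507), and also without heterozygous replicate 1 (0.60, adjusted p = 0.0681). The dimmer Fosl2 probe set read 18.8 to 24.4 on wild-type, 19.1 to 27.4 on heterozygous and 19.3 to 29.7 on null arrays, and gave 0.04 in null against wild type (adjusted p = 0.929). The rise was thus seen by 1 of 2 probe sets.

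Atf3, a stress-induced partner of JUN proteins, read 13.1, 1.39 and 5.88 on wild-type, 8.34, 4.41 and 11 on heterozygous and 3.55, 0.443 and 1.36 on null arrays. The wild-type values spanned the heterozygous ones and overlapped the null ones, and the 3 null values were below the 3 heterozygous ones. Its mean log2 value was 4.09, under the filter of 4.36, and no test was made.

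**Figure D1:**
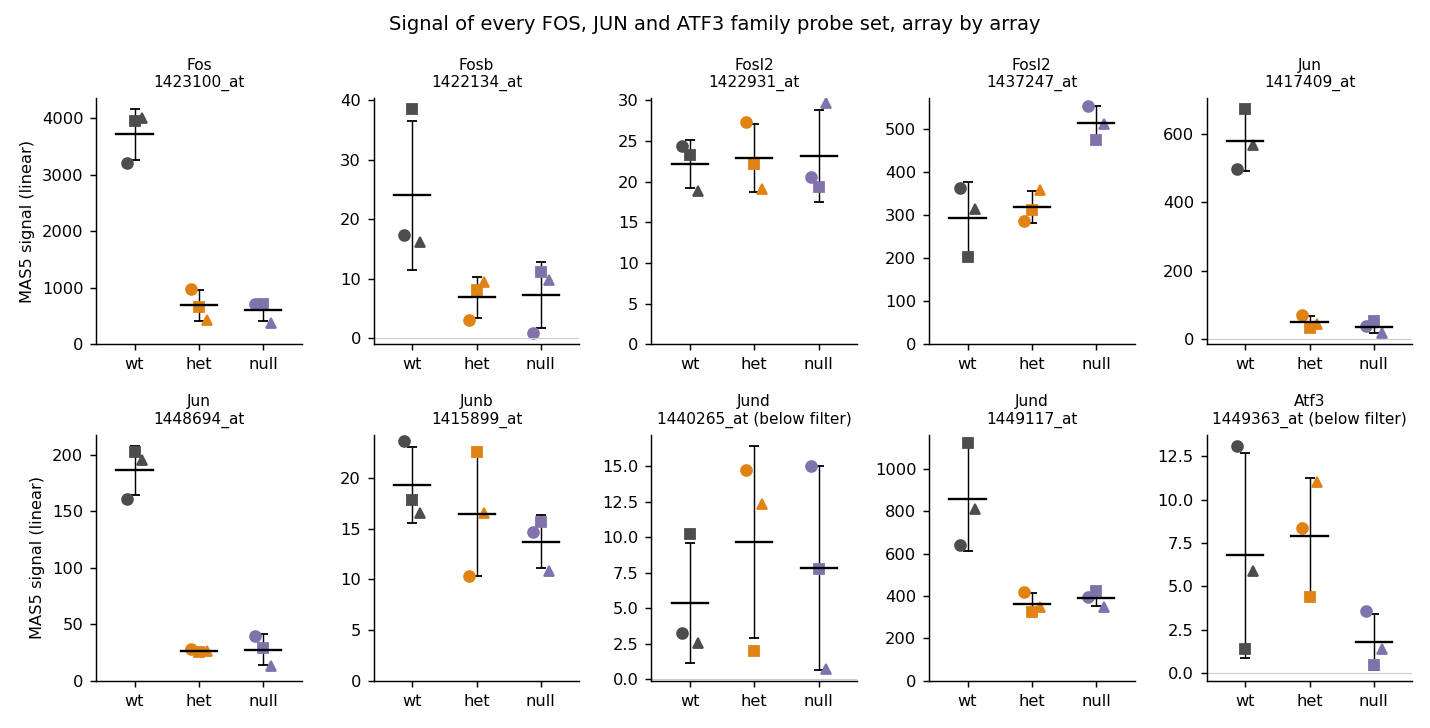
MAS5 signals (linear axis, 1 panel per probe set) of the 10 family probe sets in wild-type (wt), heterozygous (het) and null cells; circles, squares and triangles are replicates 1, 2 and 3, bars the mean and SD of 3 arrays. Fos, both Jun probe sets and the brighter Jund probe set separate the wild-type arrays from the other 6, and the brighter Fosl2 probe set separates the null arrays, at 475 to 555.

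In count, 3 of the 6 tested members fell in null against wild type and 1 rose. Over all genes 8.09% fell and 7.6% rose, 15.7% in all. The 3 null values lay wholly below the 3 wild-type values for 5 members and wholly above for 1, where 19% and 14.1% of all genes did so. Among them is Fosb, which passed the filter through wild type alone, so that lower values elsewhere were favoured, and the same holds in heterozygous cells. In heterozygous against wild type 3 of 6 fell and 0 rose, beside 0.697% falling and 0.697% rising of all genes, 1.39% in all. Values lay wholly below for 4 members and wholly above for 0, against 9.78% and 8.47% of all genes. The 0 rises came from limma, by which no member had a higher value at an unadjusted p under 0.05 either. In null against heterozygous cells 1 of 6 members, Fosl2, rose and 0 fell by limma, at an unadjusted p under 0.05 too, where 6.85% of all genes rose and 7.49% fell, 14.3% in all. Among the 6 tested members, values lay wholly above for 1 and wholly below for 0, as in 14.7% and 18% of all genes. Those of Atf3, which was not tested, lay wholly below. These comparisons share arrays: null and heterozygous cells were each set against the same 3 wild-type arrays. Brightness on an array is an average over the sorted cells, so fewer cells with high Fos or Jun and less RNA in each cell cannot be told apart.

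**Figure D2:**
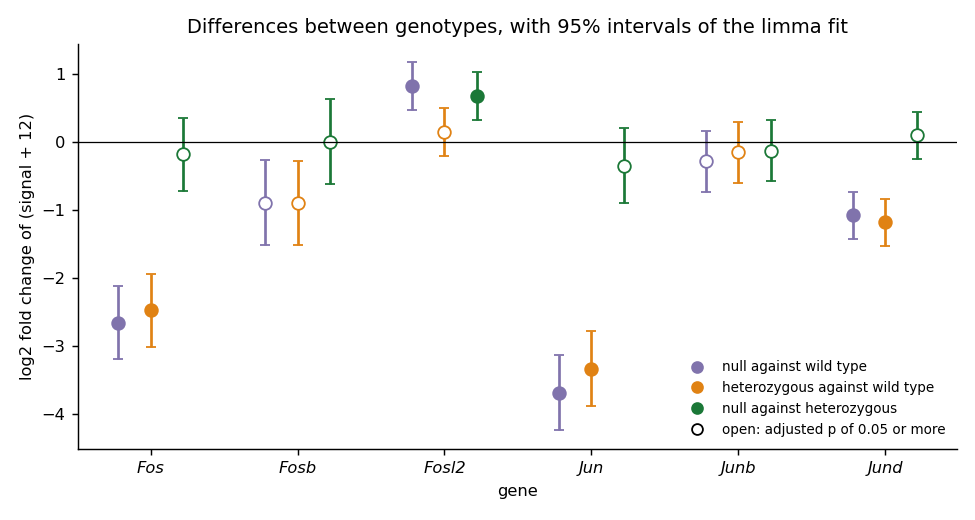
Differences on the log2(signal + 12) scale for the 6 tested genes in the 3 comparisons, with 95% intervals from the limma fit; filled points have an adjusted p under 0.05. Jun, Fos and Jund lie below 0 against wild type in both deleted groups, and Fosl2 lies above 0 in null cells at 0.82 and 0.67.

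**Figure D3:**
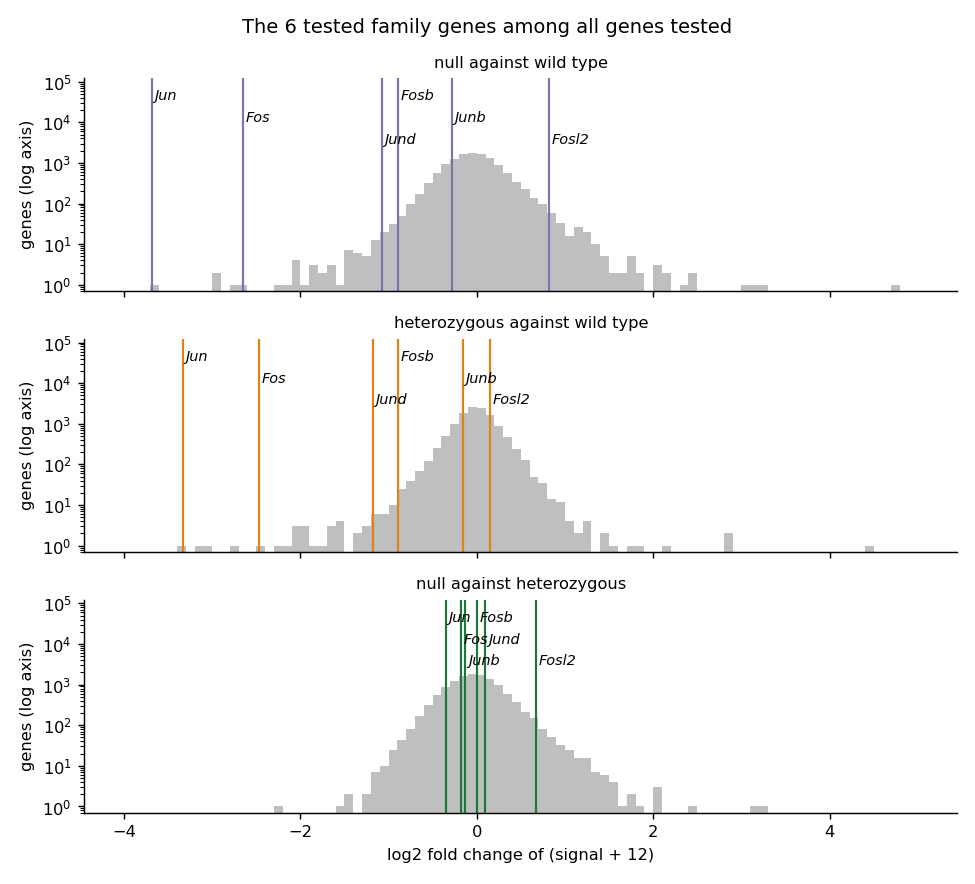
Histograms of log2 fold changes of all 12343 genes tested (count on a log axis) in the 3 comparisons, with the 6 family genes as vertical lines. Jun stands at the lower end against wild type, at -3.68 in null and -3.33 in heterozygous cells, and in null against heterozygous cells the lines run from Jun at -0.35 to Fosl2 at 0.67.

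Within each group, Fos, Jun and Jund shared an extreme on the same array, but Fos parted from Jun and Jund at the opposite extreme. Wild-type replicate 1 had the lowest Fos, Jun and Jund values of its group (3200, 498 and 639). Heterozygous replicate 1 had the highest of its group (984, 69.9 and 418), and null replicate 3 the lowest (384, 17.6 and 350). The second Jun probe set had its group's extreme on the same 3 arrays, at 161, 28.4 and 13.2. The opposite extremes of Fos were on wild-type replicate 3, heterozygous replicate 3 and null replicate 1 (4010, 437 and 709). Those of Jun and Jund were on replicate 2 of each group. On null arrays the second Jun probe set was highest on replicate 1 (40.1). Fosl2 had its wild-type maximum (364) on wild-type replicate 1 and its heterozygous minimum (286) on heterozygous replicate 1, but on null replicate 3 it had the middle value of its group (511). With 3 arrays a group this is a description, and these arrays may share handling that the labels do not record.

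The genes nearest to each member in pattern were found by the root mean square distance of log2 values over the 9 arrays, each gene centred on its own mean. Nearest to Fos were Pde4b, a cAMP phosphodiesterase (0.31), Egr1, an immediate early zinc finger factor (0.39), and Gm6958 (0.50). The nearest member was Jun at 0.51, the fifth of all genes. Nearest to Jun was Dusp1, a phosphatase of stress-activated kinases (0.48), then Fos itself (0.51), Egr1 (0.55) and Pde4b (0.76). Other probe sets of Pde4b gave 0.19 and 0.37 in null against wild type, neither past the threshold, while the one used fell, and the average of all gave -0.23 (adjusted p = 0.336). Jund lay nearest to Plekha8 (0.16), the proteoglycan gene Sdc2 (0.20) and Zfp36 (0.21). Fosb lay nearest to Spsb4 (0.19), Klf9 (0.25) and Ptpn3 (0.26). Fosl2 lay nearest to Cep170, Fam3c and Sgms2 (0.10, 0.11 and 0.14), and Junb to Rilpl1, AU016916 and Trpv2 (0.08, 0.09 and 0.10). Distances are small for any pair of genes that vary little, so those of Junb and Fosl2 are not to be set against those of Jun.

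Other genes around AP-1 were read from lists compiled from general knowledge. Of 20 tested bZIP partners and relatives, 2 rose and 3 fell in null against wild type (median 0.03), and as many without wild-type replicate 2 (median -0.0083). The median over all genes was -0.04 in null and -0.01 in heterozygous cells, and 15.7% and 1.39% of all genes were called. In heterozygous cells 0 changed by limma, with 2 higher and 2 lower at an unadjusted p under 0.05. Bach1, a repressor that pairs with small MAF proteins, rose by 0.70 (SE 0.08, adjusted p = 6.04e-05), and its dimmer probe set gave 0.21 (adjusted p = 0.415). Nfe2l2, the oxidative stress factor NRF2 that competes with it for those partners, rose by 0.48 (adjusted p = 0.000713), its dimmer probe set gave -0.41 (adjusted p = 0.216), and their average 0.0348 (adjusted p = 0.852). The small MAF gene Mafg fell by 0.54 (adjusted p = 0.00577) and Atf6, of the unfolded protein response, by 0.40 (adjusted p = 0.0313). Other probe sets gave -0.47 for Mafg and 0.00 and -0.23 for Atf6, none past the threshold. Atf6 lost its call when null replicate 1 or 3 was left out (adjusted p = 0.0922 and 0.0874), and likewise without replicate 1 or 3 of wild type (0.0793 and 0.115). The fifth call was Batf, a partner of JUN in lymphoid cells, at -0.42 (adjusted p = 0.0392), named after its value was seen.

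Upstream, 2 of 26 kinases and factors rose in null against wild type and 2 fell (median 0.10), with 2 and 1 without wild-type replicate 2. The calls with all arrays were near the 15.7% over all genes. In heterozygous cells 0 rose by limma, also at an unadjusted p under 0.05, and 1, Mapk8, fell. Mapk8, the JUN kinase JNK1, had mean signals of 208 ± 22.9 (SD, n = 3) in wild type, with 99.6 ± 7.54 and 78.5 ± 11.9 in heterozygous and null cells. Its difference was -1.29 in null (SE 0.13, adjusted p = 1.68e-05) and -0.98 in heterozygous cells (adjusted p = 0.000616). Its other probe sets did not give one direction: 1 fell by 1.44 (adjusted p = 3.3e-05), 1 rose by 1.59 (adjusted p = 0.00013), and 2 gave -0.45 and -0.22 and did not pass. With the probe sets averaged Mapk8 gave -0.36 (adjusted p = 0.0846). Map3k5, which encodes the stress kinase ASK1, rose by 0.68 (adjusted p = 0.000423), and Rps6ka3, which encodes the kinase RSK2, by 0.58 (adjusted p = 0.00309). The RAF kinase gene Araf fell by 0.89 (adjusted p = 0.0245), and 4 other probe sets of it gave -0.33 to -0.01, none past the threshold. Araf lost its call without null replicate 3 (adjusted p = 0.108) or wild-type replicate 2 (adjusted p = 0.0833).

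Among 15 tested genes listed around the degradation and silencing of FOS and JUN, 2 rose and 3 fell in null against wild type (median 0.02). In heterozygous cells 0 rose by limma, 2 at an unadjusted p under 0.05, and 2 fell. All genes had 15.7% called in null and 1.39% in heterozygous cells. Leaving out wild-type replicate 2 gave 2 rising and 3 falling in null, and 2 rising and 1 falling in heterozygous cells. Zfp36, which encodes tristetraprolin and destabilises AU-rich messages, read 92.9 ± 7.4 (SD, n = 3) in wild type, with 43.1 ± 10.3 and 38.7 ± 4.57 in heterozygous and null cells. It fell by 1.05 in null (SE 0.15, adjusted p = 0.000501) and by 0.94 in heterozygous cells (adjusted p = 0.00496). Its relative Zfp36l2 fell by 0.58 in null cells (adjusted p = 0.000609). Its other probe set gave -0.31 (adjusted p = 0.559), and the average of both -0.41 (adjusted p = 0.0505), not past the threshold. Dusp6, a phosphatase of ERK kinases, fell by 1.33 in null (adjusted p = 5.25e-06) and by 0.52 in heterozygous cells (adjusted p = 0.0406), the second of which missed the threshold without wild-type replicate 2 (-0.48, adjusted p = 0.115). Khsrp, another decay factor, rose by 0.53 in null cells (adjusted p = 0.0136), and its other probe sets gave 0.57 and -0.16 and did not pass. Khsrp lost its call without null replicate 1 (adjusted p = 0.0609).

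Of 17 tested AP-1 targets described in general knowledge, 2 rose and 0 fell in null against wild type by limma (median -0.04), with 1 lower at an unadjusted p under 0.05. These calls are near the 15.7% over all genes. In heterozygous cells, where 1.39% of all genes changed, 0 targets did (median -0.06), with 2 higher and 0 lower at an unadjusted p under 0.05. The counts of calls were the same without wild-type replicate 2. Another 8 measured targets were below the brightness filter. The rises were Lgals3, a galectin of macrophages, by 1.35 (SE 0.23, adjusted p = 0.00134), and Icam1, an adhesion molecule, by 0.67 (adjusted p = 0.00508). Mt1, a metallothionein, gave -0.39 (adjusted p = 0.0843) and Gja1, a connexin, -0.78 (adjusted p = 0.199).

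Other immediate early and stress genes fell in part. Of 30 tested, 1 rose and 10 fell in null against wild type (median -0.26), and in heterozygous cells 0 rose by limma, 1 at an unadjusted p under 0.05, and 5 fell (median -0.23). The shares called over all genes were 15.7% and 1.39%. With wild-type replicate 2 left out, 1 rose and 8 fell in null, and 0 rose and 4 fell in heterozygous cells. Dusp1 fell by 2.91 in null (SE 0.23, adjusted p = 2.43e-06) and by 3.09 in heterozygous cells (adjusted p = 4.73e-06). Egr1 gave -2.71 (SE 0.39, adjusted p = 0.00046) and -2.73 (adjusted p = 0.00169), the second of which did not pass with a robust variance prior (adjusted p = 0.0589). Ier2 fell by 1.11 in null cells (adjusted p = 3.51e-05) and Rhob, a small GTPase, by 0.46 (adjusted p = 0.00555). The rise was Dusp5 at 1.01 (adjusted p = 0.0218), named after its value was seen.

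**Figure D4:**
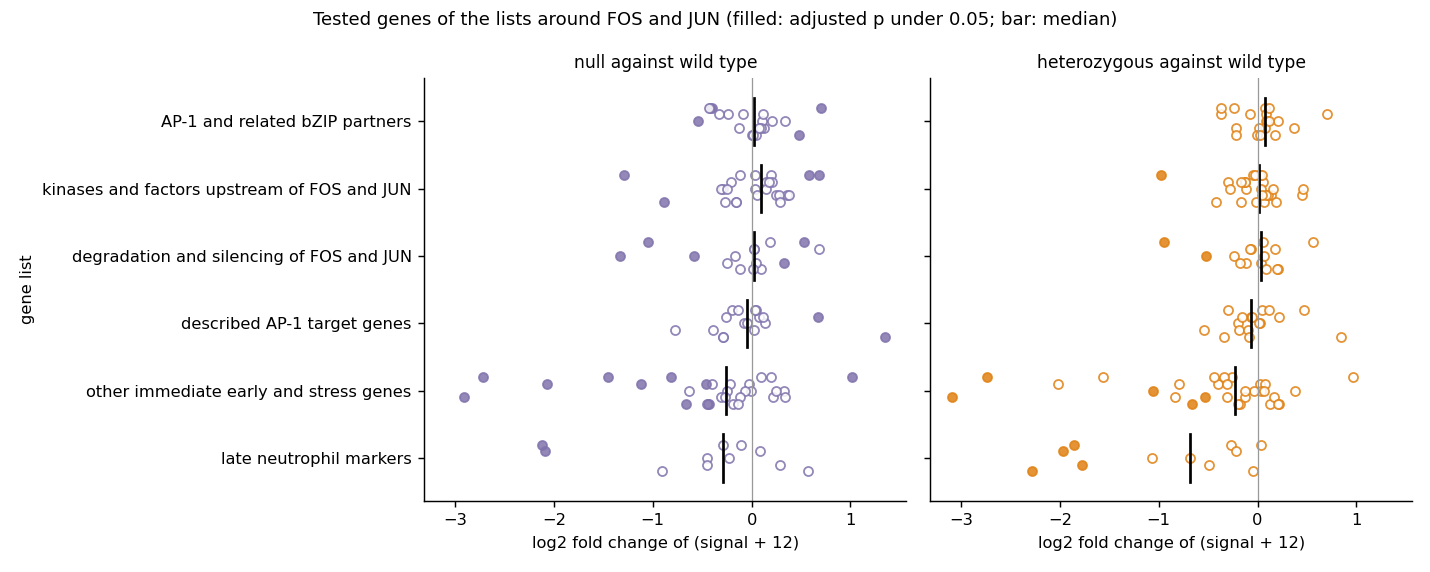
Log2 fold changes of the tested genes of 6 lists in null (left) and heterozygous (right) against wild-type cells; each point is 1 gene, filled where its adjusted p is under 0.05, and black bars are list medians. The early and stress list extends to -2.91 in null and -3.09 in heterozygous cells, both Dusp1, while described AP-1 targets lie on both sides of 0.

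Some markers of other cells also differed from wild type, though with all arrays fitted not in every list. Over all genes 7.6% rose and 8.09% fell in null against wild type. In heterozygous cells 0.697% rose and 0.697% fell. Late neutrophil markers had 0 of 11 tested genes rising by limma, 1 at an unadjusted p under 0.05, and 2 falling in null cells, Ltf (-2.09, adjusted p = 7.99e-05) and Ngp (-2.12, adjusted p = 0.00109). In heterozygous cells 0 rose by either measure and 4 fell, Chil3, Ltf, Ngp and Lcn2, of which Chil3 missed the threshold once wild-type replicate 2 was left out (adjusted p = 0.0974). That left 2 falling in null and 3 in heterozygous cells. The summed signal of the list was 4322 to 8265 on wild-type, 2869 to 5207 on heterozygous and 2578 to 9463 on null arrays, so the groups overlapped. Wild-type replicate 1, lowest in Fos and Jun of its group, had the lowest of the 3 wild-type sums, and heterozygous replicate 1, highest in both, had the highest heterozygous sum. The null arrays did not follow: replicate 3, lowest in Fos and Jun, had the middle sum (5935), and replicate 2, highest in Jun, the lowest (2578). The highest wild-type sum was on replicate 2. Mast cell and basophil markers had 1 of 7 rising and 1 falling in null cells. The rise was Cd200r3 (1.14, adjusted p = 0.00847) and the fall Fcer1a (-2.25, adjusted p = 0.000772). With its probe sets averaged, Cd200r3 gave 0.625 (adjusted p = 0.106) and did not pass. The median difference of this list from wild type was 0.24 for null and -0.22 for heterozygous cells. In heterozygous cells 0 rose by limma, adjusted or not, and 1 fell, again Fcer1a (-3.11, adjusted p = 0.000197). When wild-type replicate 2 was left out, 2 rose and 1 fell in null cells, and 0 and 1 in heterozygous cells. The sums were 4445 to 6684, the highest on wild-type replicate 2, 3990 to 4694 and 5198 to 7347 in the same order of groups. Monocyte and macrophage markers had 4 of 10 rising and 2 falling in null cells, and 0 rising by limma (3 at an unadjusted p under 0.05) and 1 falling in heterozygous cells. Cd14, a receptor for bacterial lipopolysaccharide, rose by 1.14 in null (adjusted p = 0.000251) and fell by 0.90 in heterozygous cells (adjusted p = 0.00635). The 2 falls in null cells were Cd68 (-0.48, adjusted p = 0.0247) and Ms4a6c (-0.40, adjusted p = 0.0389). Cd68 missed the threshold with quantile normalization (adjusted p = 0.0668) and without wild-type replicate 3 (adjusted p = 0.102). On the 8 arrays other than wild-type replicate 2, 2 rose and 2 fell in null cells, and 0 and 1 in heterozygous cells. The sums were 10540 to 14810, the lowest on wild-type replicate 2, 13440 to 14130 and 14470 to 17900. B and T lymphoid markers had 0 of 5 rising by limma, adjusted or not, and 1 falling in null cells, and 0 changed in heterozygous cells with 1 lower at an unadjusted p under 0.05, with sums of 1230 to 1488, 1125 to 1217 and 576.8 to 687. There Cd3d, Cd3e, Cd3g, Cd79a, Pax5 and Ebf1 were below the filter, and the fall was Ighm (-1.42, adjusted p = 1.02e-06), whose other probe sets gave -1.46 to -0.03 and whose average gave -0.29 (adjusted p = 0.108). These counts were the same without wild-type replicate 2. Erythroid and megakaryocyte markers had 0 of 6 changed by limma in any comparison, adjusted or not, with sums of 210 to 1043, 302.2 to 415.8 and 189.7 to 330.1. The 1043 was wild-type replicate 2, and the other wild-type arrays had 210 and 211.1. Without it 1 gene rose in heterozygous cells and 0 in null cells, where 1 was higher at an unadjusted p under 0.05. GMP markers had 3 of 16 rising and 2 falling in null cells and 0 changed in heterozygous cells by limma, where 2 were higher and 2 lower at an unadjusted p under 0.05, and the counts of calls were the same without wild-type replicate 2.

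Measures of RNA quality did not set the wild-type arrays apart from both other groups. The ratio of 3′ to 5′ control signal of beta-actin was 7.2 to 10.1 on wild-type, 7.48 to 8.45 on heterozygous and 7.28 to 8.25 on null arrays. That of Gapdh was 6.56 to 7.44, 6 to 6.33 and 7.11 to 7.72. The 5′ control for 18S ribosomal RNA read 907 to 1930 on wild-type, 2550 to 3130 on heterozygous and 1340 to 1830 on null arrays. Heterozygous arrays thus stood apart from wild-type and null arrays without overlap, lower in the Gapdh ratio and higher in the 18S control. The part of these measures and of the other cell types in the falls of Fos, Jun and Jund was not tested.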

How the data were processed

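Values were linear, positive signal intensities as deposited by the authors, made with MAS5 per the submitters' processing notes, which give no version. The 2% trimmed mean was 100 on each of 9 arrays, so a shift common to most transcripts is hidden. Detection calls were not used here. Probe sets with 1 gene symbol (34945 of 45101, 932 having several, 9160 none and 64 being controls) were transformed as log2(signal + 12), which understates changes of dim genes. The brightest probe set by mean log2 stood for each gene, tested where that mean reached the 40th percentile, a signal of 8.5. limma 3.58.1 in R 4.3.3 (lmFit, eBayes with an intensity trend, 6 residual and 8.1 prior degrees of freedom) was fitted on 3 groups of 3 arrays, two-sided, with Benjamini-Hochberg adjustment over all 12343 genes and calls under 0.05. A second fit took all 22356 probe sets that passed. An exact permutation test of 3 against 3 arrays cannot go below 0.1. The fit was tested on simulated data. Samples of the same replicate number correlated at -0.028 to 0.144 in their deviations from group means, and samples of other numbers at -0.151 to 0.092. These ranges overlapped, and the numbers were not taken as pairs. Lists were of bZIP partners, upstream kinases and factors, degradation genes, AP-1 targets, early and stress genes, and markers of GMPs, neutrophils, monocytes, mast cells, lymphoid and erythroid or megakaryocyte cells. In the lists other than markers, named genes are the 4 with the lowest p for null against wild type. In the marker lists only some of those 4 are named. For each member the 3 nearest genes are named too. All other list genes were named after their values were seen. The members and lists were chosen with earlier results of these data known. Alternatives changed the pseudocount, filter, normalization, variance prior, arrays fitted, array weights, treatment of several probe sets, replicate block and the arrays left out.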

Additional observations from a re-analysis of the deposited data

How the results depend on the processing

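Over 22 alternatives (20 for the second Jun probe set), the falls of Fos and of both Jun probe sets in both deleted groups, and the rise of Fosl2 in null against wild type, kept their direction and their side of the threshold. Called members numbered 3 to 5 in null against wild type and 2 to 3 in heterozygous against wild type. The number of members tested was not 6 in every alternative, since the filter differed between some of them. In null against heterozygous cells the count of 1 became 0 without an intensity trend (Fosl2 adjusted p = 0.0609) and with the probe sets of a gene averaged (0.34, adjusted p = 0.0786), and lay between 0 and 1 with single arrays left out. Fosb in null against wild type passed with a pseudocount of 32 (adjusted p = 0.0452), a robust prior (0.0468), the replicate block (0.0237) and without null replicate 2 (0.0482).

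Small differences changed sign. In null against heterozygous cells Fosb gave -0.21 with a pseudocount of 1 and -0.0616 with array weights. The second Jun probe set gave 0.0345 with quantile and 0.0418 with cyclic loess normalization, and 0.0029 with array weights. Jund gave -0.0212 with probe sets averaged. In null against wild type the platelet gene Gp1bb gave 0.0471 and 0.0559 with quantile and cyclic loess normalization.

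With single arrays left out, null against heterozygous differences ran from -0.47 to 0.10 for Fos, -0.16 to 0.27 for Fosb, -0.26 to 0.26 for the second Jun probe set, -0.29 to 0.0236 for Junb and -0.12 to 0.10 for the dimmer Fosl2 probe set. Heterozygous against wild type ran from -0.31 to 0.0106 for Junb, -0.0922 to 0.31 for Fosl2 and -0.063 to 0.11 for its dimmer probe set. Null against wild type ran from -0.0924 to 0.12 for that probe set. In the same comparison Gp1bb ran from -0.15 to 0.11 and Pf4, also of platelets, from -1.22 to 0.0007.

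The replicate numbers were not taken to pair the samples, and whether they mark shared handling was not tested. With the replicate block 5, 3 and 1 members and 2111, 201 and 1936 genes were called in null against wild type, heterozygous against wild type and null against heterozygous, beside 1937, 172 and 1771 without it. Counts over all genes moved by more than 1.5 times without an intensity trend (1291, 83 and 1104), without null replicate 3 in null against wild type (1259), and in heterozygous against wild type with no filter (112), averaged probe sets (86) or without heterozygous replicate 2 (99) or 3 (102). In null against heterozygous cells the count was 1065 without null replicate 3 and 1034 without heterozygous replicate 1. The cause was not tested. The number of arrays, 3 a group, limits the precision, and dim genes such as Fosb, Junb and Atf3 lie near the background of the array.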

Other observations

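Of 30 other early and stress genes tested, 2 rose and 3 fell in null against heterozygous cells, with a median of 0.005. That share is near the 14.3% called over all genes in this comparison. Ier2 fell by 0.72 (limma adjusted p = 0.00141), the chaperone gene Hsph1 by 0.65 (adjusted p = 0.00219) and the Kruppel-like factor gene Klf4 by 0.79 (adjusted p = 0.0211). Its relatives Klf2 and Klf6 rose by 1.17 (adjusted p = 0.00428) and 0.44 (adjusted p = 0.0113). Among bZIP partners Bach1 (0.59, adjusted p = 0.0003), Nfe2l2 (0.49, adjusted p = 0.000776) and Atf4 (0.35, adjusted p = 0.008) rose, and Mafg (-0.75, adjusted p = 0.000822) and Batf (-0.50, adjusted p = 0.0184) fell, 3 and 2 of 20. These genes were named after their values were seen.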
